A study of Mus musculus with 17 samples.

Results

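Elastic fibers give stretch to lung, vessel wall and skin. Each fiber holds a core of elastin laid on a scaffold of fibrillin microfibrils. Fibulins and emilin attach elastin to that scaffold, and the lysyl oxidases oxidize lysine residues so that elastin and collagen chains become covalently crosslinked. In most tissues fibroblasts and smooth muscle cells make these proteins, and lysyl oxidase in mammary tumors is best known for stiffening the collagen matrix around them. The genes described are 10 of the 55450 in the bulk table, chosen by name: elastin (Eln), the fibrillins Fbn1 and Fbn2, the fibulins Fbln1, Fbln2 and Fbln5, the lysyl oxidases Lox, Loxl1 and Loxl2, and the microfibril interface protein Emilin1.

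The cells were cultured lines from 10 tumor-bearing female FVB/NJ mice, aged 10 to 12 weeks, that carried the MMTV-PyMT transgene, which drives the polyoma middle T oncogene from a mammary tumor virus promoter. Lines came from the primary tumor of the mammary fat pad (MFP) and from lung, bone marrow (BM) and lymph node (LN). Per the methods the cells were sorted for EpCAMhigh with either CD44low or CD44high. The labels give the CD44 class of the lung, BM and LN lines and none for MFP, which made 7 groups of 2 bulk RNA libraries. The 2 libraries of a group were distinct clonal isolates from different mice, so each value stands for 1 isolate kept in culture. Single-cell RNA was read in 1 library each of lung CD44low (lungL), lung CD44high (lungH) and LN CD44high (lymphH) cells, so no test across samples was possible there. The methods speak of 2 replicates for each of these lines. Here the lungL and lungH libraries are those labelled replicate 1, the lymphH library carries no replicate number, and no other was analysed.

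The 4 lung libraries stood apart from the label of the sort. Epcam, the epithelial adhesion molecule on which the cells were gated, was listed at 0 TPM (a transcript level scaled for transcript length and library total) in both lung CD44low libraries and at 0.23 and 0.86 in the lung CD44high libraries, against 315 to 941 in the other 10. The summed level of 10 epithelial markers was 2.43 and 2.67 TPM in lung CD44low and 16.0 and 87.7 in lung CD44high, against 2257 to 8901 elsewhere. The sum of 10 fibroblast markers ran the other way, at 4708 and 5117 TPM in lung CD44low, 195 and 85.7 in lung CD44high, and 0.48 to 19.9 elsewhere. Of these 10 markers 8 reached 1 TPM in both lung CD44low libraries, and the other two, Fap and Dpt, were at or near 0. The 6 smooth muscle or myofibroblast markers summed to 758 and 824 TPM in lung CD44low and to at most 10.5 in any other library, and markers of lung epithelium to at most 0.71 and of endothelium to at most 0.30 anywhere. Leukocyte markers summed to 39.2 and 39.1 TPM in lung CD44low and to 2.28 to 23.5 elsewhere, with Ptprc, the pan-leukocyte marker, at or under 0.20 in all 14 libraries. Mesothelial markers summed to 309 and 414 TPM in MFP, nearly all Msln, and to 3.82 to 24.5 elsewhere, of which Wt1 made 18.2 to 22.6 in the 4 lung libraries and none in the others. In a bulk library, fewer cells of a type and less RNA per cell cannot be told apart. The part of these marker levels in the results that follow was not tested.

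**Figure D1:**
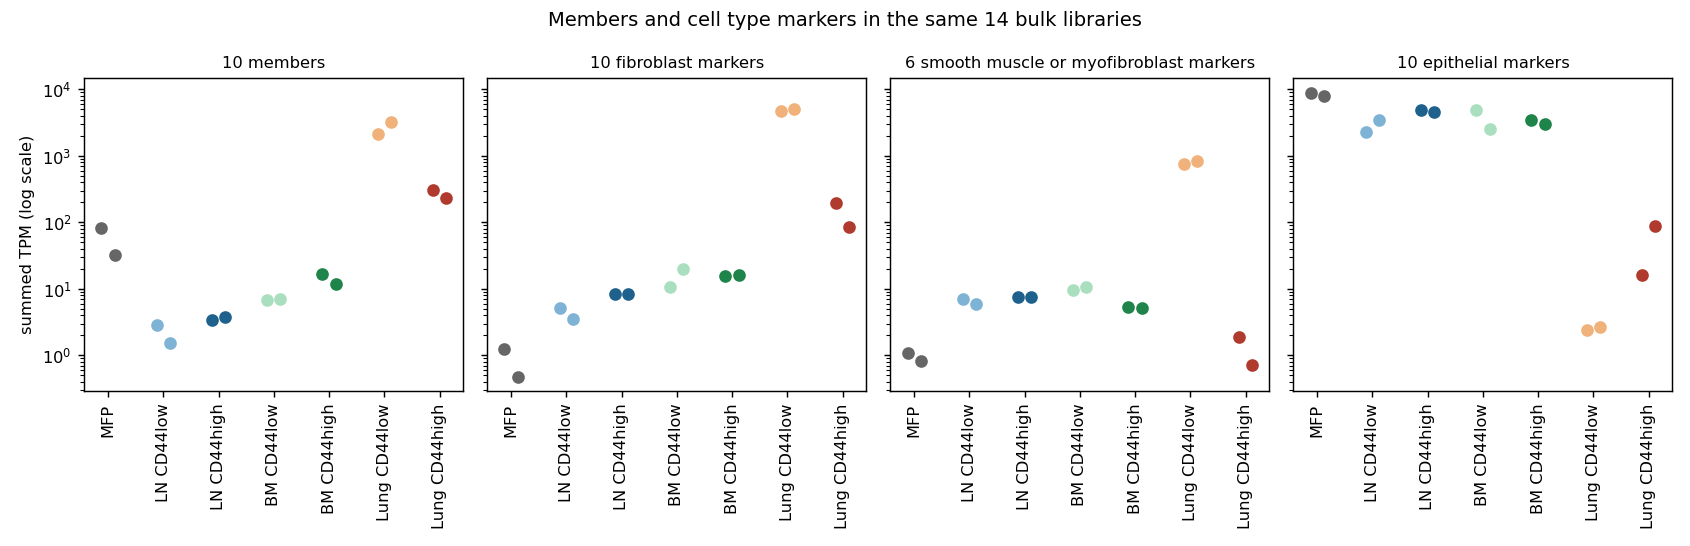
Summed TPM (log scale) of the 10 elastic fiber and lysyl oxidase genes, 10 fibroblast markers, 6 smooth muscle or myofibroblast markers and 10 epithelial markers in the 14 bulk libraries, 1 point per library. The lung CD44low libraries are highest for the first 3 sums, with the 10 genes at 2161 and 3249 TPM, and lowest for the epithelial sum.

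The core of the fiber was nearly absent from every library. Eln (ENSMUSG00000029675.12, chr5:134702593-134747323 on the minus strand of mm10) did not exceed 0.34 TPM and was listed at 0 in 6 of the 14 libraries. Its highest value, 0.34, came from a BM CD44low library, and both lung CD44low libraries were at 0.02 or less. Fbn2 (ENSMUSG00000024598.9, chr18:58008623-58210487, minus strand), the fibrillin best known from development, reached at most 0.03 TPM and was listed at 0 in 8 libraries. Neither gene passed the filter of at least 1 TPM in 2 libraries, so neither was tested, and 8 of the 10 genes were.

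Fbn1 (ENSMUSG00000027204.13, chr2:125300594-125507993, minus strand), the main fibrillin of adult microfibrils, was a gene of the lung lines. Its level was 23.9 and 51.8 TPM in lung CD44low and 7.53 and 3.14 TPM in lung CD44high. The other 10 libraries ran from 0 to 0.04 TPM, so neither lung group overlapped with them, and the lung groups did not overlap with each other. On the log2(TPM + 1) scale the lung CD44low mean lay 5.17 ± 0.38 (SE) above MFP (limma adjusted p = 3.2e-06) and the lung CD44high mean 2.56 ± 0.38 above it (limma adjusted p = 0.00062). Between the lung groups, CD44high was lower, with a log2 difference of -2.61 ± 0.38 (limma adjusted p = 0.00063).

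Emilin1 (ENSMUSG00000029163.9, chr5:30913402-30921277, plus strand), which sits where elastin meets the microfibril, had the most graded pattern of the 10. It stood at 44.5 and 50.6 TPM in lung CD44low, 10.5 and 8.93 in BM CD44high, 1.53 and 2.89 in BM CD44low, 0.84 and 1.80 in LN CD44high and 0.46 and 0.58 in LN CD44low. Lung CD44high, at 0.07 and 0.06 TPM, and MFP, at 0 and 0.03, were at the bottom. The LN CD44high and BM CD44low ranges overlapped, and no other neighbours in this order did. BM CD44high exceeded MFP by 3.39 ± 0.29 on the log2(TPM + 1) scale (limma adjusted p = 3.3e-05), and the value from a fit without the 4 lung libraries, chosen after their Epcam level was seen, was the same with a limma adjusted p of 0.00057. Within BM, CD44high lay 1.77 ± 0.29 above CD44low, short of the size limit and with a limma adjusted p of 0.086. Scaling the libraries by median ratios took that difference to 2.04 with a limma adjusted p of 0.021.

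The fibulins are glycoproteins that bind elastin, its crosslinking enzymes or proteins of the basement membrane. Fbln5 (ENSMUSG00000021186.9, chr12:101746565-101819055, minus strand), which binds both elastin and lysyl oxidase-like enzymes, was at 562 and 600 TPM in lung CD44low and listed at 0 in both lung CD44high libraries. MFP held 0.42 and 0.19 TPM, LN CD44low 0.09 and 0.54, LN CD44high 2.06 and 1.35, BM CD44low 3.43 and 1.92 and BM CD44high 4.32 and 1.75. All 8 LN and BM libraries were thus above the lung CD44high libraries and far below lung CD44low. Fbln1 (ENSMUSG00000006369.14, chr15:85205949-85286535, plus strand), a fibulin of basement membranes and elastic fibers, read 87.0 and 78.8 TPM in lung CD44low. It was listed at 0 in 9 of the other 12 libraries, both lung CD44high libraries among them, and did not pass 0.06 TPM in any of those.

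These 2 genes, high in lung CD44low and listed at 0 in lung CD44high, also had a promoter window free of annotated exons, and their sequences are shown for that reason. Each is the 250 bases before the RefSeq start (GRCm38.p6, the build called mm10), read 5′ to 3′ on the gene's strand, with any match to 4 searched motifs on either strand in capitals. The motifs were the TBP site TATAAA, the Sp1 site GGGCGG, the AP-1 core TGANTCA and the TEAD core GGAATG, and no matches overlapped.

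Fbln1, chr15:85205699-85205948, plus strand, and Fbln5, chr12:101819120-101819369, minus strand:
Fbln1: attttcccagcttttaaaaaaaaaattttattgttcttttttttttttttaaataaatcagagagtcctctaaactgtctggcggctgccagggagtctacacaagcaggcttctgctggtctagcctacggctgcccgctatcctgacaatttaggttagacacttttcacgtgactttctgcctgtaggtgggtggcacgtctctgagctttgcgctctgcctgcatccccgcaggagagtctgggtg
Fbln5: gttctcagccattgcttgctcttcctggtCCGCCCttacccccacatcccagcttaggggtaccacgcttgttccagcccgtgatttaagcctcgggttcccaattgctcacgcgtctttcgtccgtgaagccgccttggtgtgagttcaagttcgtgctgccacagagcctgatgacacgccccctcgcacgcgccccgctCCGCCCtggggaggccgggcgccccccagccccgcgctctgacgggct

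The Fbln1 window held none of the 4 motifs and the Fbln5 window held 2 Sp1 sites on the opposite strand, the nearer ending 43 bases before the start. An Sp1 site stood in 32.7% of the 32851 promoter windows of this length, a TBP site in 12.4%, an AP-1 core in 6.7% and a TEAD core in 12.6%. The 2 windows differed in base composition, with a GC content of 46.4% for Fbln1 and 65.2% for Fbln5, against a median of 52.4%. Windows were also found for Fbn1, Fbln2 and Emilin1, but they overlapped annotated exons and are not shown. Of the motifs, Fbn1 and Fbln2 each held 1 Sp1 site and Emilin1 held none.

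Fbln2 (ENSMUSG00000064080.12, chr6:91212455-91272540, plus strand), a fibulin of vessel walls and basement membranes, was the member with the widest reach. Its level was 665 and 1391 TPM in lung CD44low, 298 and 228 in lung CD44high and 79.8 and 30.7 in MFP. LN CD44low held 1.34 and 0.16 TPM, LN CD44high 0.14 and 0.10, BM CD44low 1.27 and 0.98 and BM CD44high 1.78 and 0.59. The groups therefore fell into 3 steps that did not overlap, with both lung groups at the top, MFP between, and all LN and BM libraries at the foot.

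Against MFP, Fbln2 was higher in lung CD44low by 4.25 ± 0.53 on the log2(TPM + 1) scale (limma adjusted p = 0.00014) and in lung CD44high by 2.37 ± 0.53 (limma adjusted p = 0.0061). It was the only one of the 8 tested genes called lower in LN and BM, with log2 differences of -4.94 ± 0.53 in LN CD44low (limma adjusted p = 0.00018), -5.50 in LN CD44high (limma adjusted p = 7.6e-05), -4.58 in BM CD44low (limma adjusted p = 0.00023) and -4.59 in BM CD44high (limma adjusted p = 0.00021). All 6 comparisons share the same 2 MFP libraries, which differed in Fbln2 by more, on the log scale, than the lung CD44high libraries did. The lung CD44high value rested on single libraries: it was 1.69 without MFP replicate 2 (limma adjusted p = 0.057) and 2.18 without lung CD44high replicate 1 (limma adjusted p = 0.0501). Without the lung libraries the LN and BM values were the same, with limma adjusted p between 0.0012 and 0.0025.

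**Figure D2:**
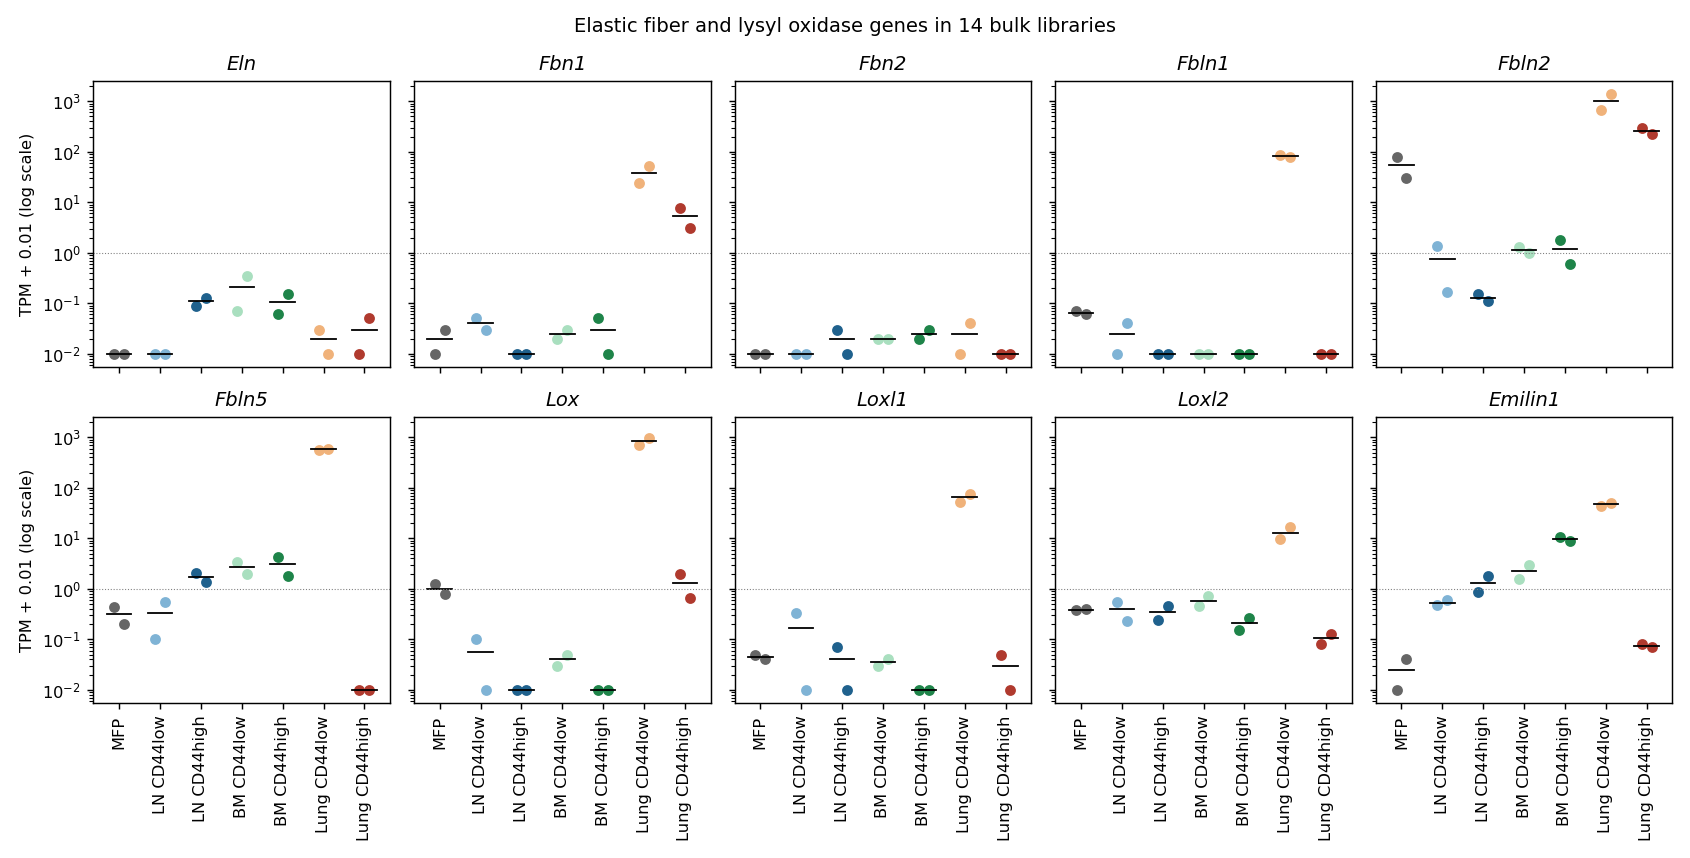
TPM + 0.01 (log scale) of each of the 10 genes by group, with a point for each of the 2 libraries, a bar at their mean and a dotted line at 1 TPM. The 8 tested genes are highest in lung CD44low. Fbn1 and Fbln2 also stand high in lung CD44high, Fbln2 in MFP and Emilin1 in BM CD44high.

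Lox (ENSMUSG00000024529.14, chr18:52516067-52529867, minus strand), the founding lysyl oxidase, was read at 715 and 984 TPM in lung CD44low, which ranked it 240 and 156 among all genes of these libraries. Lung CD44high held 1.95 and 0.64 TPM and MFP 1.21 and 0.77, ranges that overlapped. In LN and BM, Lox did not pass 0.09 TPM and was listed at 0 in 5 of 8 libraries. The lung CD44low mean exceeded MFP by 8.73 ± 0.31 on the log2(TPM + 1) scale (limma adjusted p = 1.8e-08), and lung CD44high lay under lung CD44low with a log2 difference of -8.58 ± 0.31 (limma adjusted p = 2.4e-08). The LN and BM groups differed from MFP by -0.92 to -0.98, within the size limit. With a pseudocount of 0.1 TPM in place of 1, these 4 differences were -2.95 to -3.42 and passed both limits.

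The other two lysyl oxidases followed Lox at lower levels. Loxl1 (ENSMUSG00000032334.10, chr9:58287738-58313186, minus strand), the enzyme tied most closely to elastin, was at 53.1 and 76.7 TPM in lung CD44low and at no more than 0.32 in any other library. Loxl2 (ENSMUSG00000034205.16, chr14:69609068-69695834, plus strand), which acts on basement membrane collagen, was at 9.63 and 16.4 TPM in lung CD44low and between 0.07 and 0.70 elsewhere. The lowest Loxl2 values, 0.07 and 0.12, were those of lung CD44high. Loxl1 exceeded MFP in lung CD44low by 5.97 ± 0.22 and Loxl2 by 3.31 ± 0.25 on the log2(TPM + 1) scale (limma adjusted p = 2.0e-08 and 3.9e-06). Loxl1, Loxl2 and Fbln1 reached 1 TPM in the 2 lung CD44low libraries alone, so that group carried them past the filter and they had to differ there.

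A gene was called where its difference passed 2 on the log2(TPM + 1) scale with a limma adjusted p under 0.05 over 15348 genes. In lung CD44low against MFP, 8 of the 8 tested genes were called, all higher. Of all genes tested 11.2% were called higher in this comparison, and 18.8% in either direction. The 8 differences ran from 3.31 for Loxl2 to 8.81 for Fbln5, with a median of 5.77 against 0 over all genes. Since 3 of the 8 passed the filter through lung CD44low alone, this count describes the genes and is no measure of support.

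In lung CD44high against MFP, 2 of 8 were called, Fbn1 and Fbln2, both higher, where 5.42% of all genes were called higher and 13.5% in either direction. The median of the 8 differences was 0.02. The other 6 genes had differences from -0.38 for Fbln5 to 0.15 for Lox. In LN CD44low 1 of 8 was called (4.79% of all genes), in LN CD44high 1 (6.13%) and in BM CD44low 1 (7.16%), each time Fbln2. In BM CD44high 2 were called, Fbln2 lower and Emilin1 higher, where 7.67% of all genes were. Over 8 genes, a background of this size comes to fewer than 1 gene. With a pseudocount of 0.1 TPM the 4 counts were 3, 4, 4 and 4, as Lox was then called lower in each and Emilin1, Fbln5 or both higher.

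**Figure D3:**
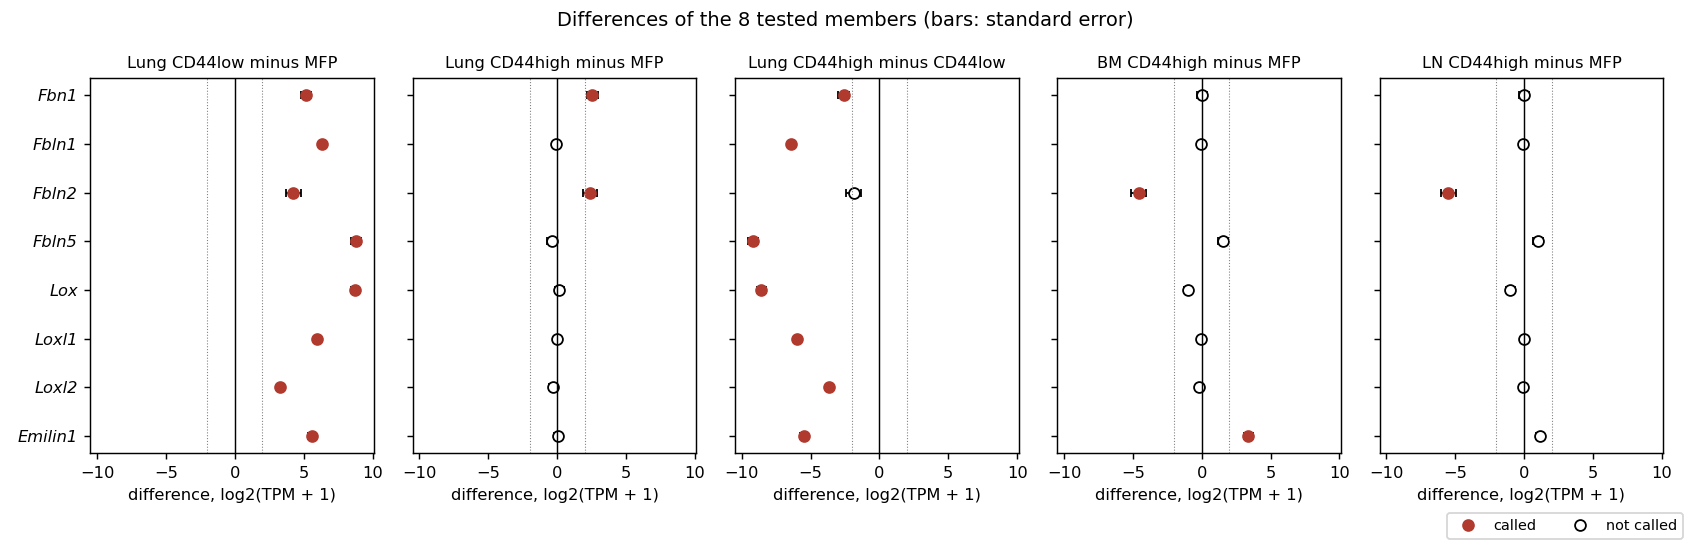
Differences on the log2(TPM + 1) scale with standard errors for the 8 tested genes in 5 comparisons, filled where called and open where not, with dotted lines at the size limit of 2. All 8 are to the right in lung CD44low minus MFP, and 7 of 8 are called to the left in lung CD44high minus CD44low, where Fbln1 and Fbln5 rest on CD44high libraries listed at 0.

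The CD44high and CD44low lines of lung differed in most of these genes. Between them 7 of 8 genes were called lower in CD44high, where 8.80% of all genes were called lower and 11.3% in either direction. As Fbln1, Loxl1 and Loxl2 entered the test through lung CD44low alone, this count too is only a description. The log2 difference was -5.51 ± 0.29 for Emilin1, -5.99 ± 0.22 for Loxl1 and -3.64 ± 0.25 for Loxl2, with limma adjusted p of 4.1e-07, 2.6e-08 and 2.8e-06. Fbln1 and Fbln5 were called as well, and since both CD44high libraries were listed at 0 no fold is given. Fbln2 was the exception, with a log2 difference of -1.88 ± 0.53 and a limma adjusted p of 0.023. It passed the size limit, at -2.41, when lung CD44low replicate 1 was left out.

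In LN and in BM no gene of the 8 was called between CD44high and CD44low by limma, where 0.208% and 0.104% of all genes were. The BM share over all genes depended on BM CD44low replicate 1 and was far larger without it. At an unadjusted limma p under 0.05 there was 1 gene of the 8 in LN and 1 in BM, where 1545 and 1136 of the 15348 genes were. It was Fbln5 in LN, with a log2 difference of 1.05 ± 0.37 (limma adjusted p = 0.36), and Emilin1 in BM. The difference of the differences was tested as the CD44 contrast in lung minus its mean in LN and BM. It was called, and negative, for 7 of 8 genes, where 6.57% of all genes were called lower and 9.59% in either direction, and the same 3 genes had to differ in it. Fbln2 gave -1.60 ± 0.65 with a limma adjusted p of 0.11.

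Taking both lung groups together against the 4 LN and BM groups, 6 of 8 genes were called, all higher. Of all genes 7.13% were called higher and 12.7% in either direction. Of the 6, Fbn1, Fbln1, Lox and Loxl1 passed the filter only through lung libraries and had to be higher there, so the count is a description. Fbln2 led with a log2 difference of 8.21 ± 0.32, followed by Lox with 5.40 ± 0.19 and Fbn1 with 3.85 ± 0.23. Loxl2, at 1.502 ± 0.15, and Emilin1, at 1.13 ± 0.18, stayed within the size limit. This average spans lung groups that differed widely: for Fbln1, Fbln5, Loxl1 and Lox the CD44low libraries supplied nearly all of it. Under median-ratio scaling the median of all genes in this comparison moved by -0.21, from 0.20, and the calls over all genes from 1095 higher and 851 lower to 864 higher and 1030 lower. The 6 calls among the 8 genes stayed under that scaling.

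Among the genes whose levels tracked Lox most closely over the 14 libraries, by Pearson's r on log2(TPM + 1), were Aff2 (r = 0.9987), Gm12022 (r = 0.9961), Gfra4 (r = 0.9955) and Phactr2 (r = 0.9953). All 4 were highest in lung CD44low, where Aff2 was at 20.9 and 22.2 TPM, and at no more than 0.74 TPM in any other library. Among the members Fbln1 came closest to Lox, with r = 0.9891 and rank 60 of 15347 genes, followed by Loxl1 (0.9876), Loxl2 (0.9663), Fbln5 (0.9311) and Fbn1 (0.9156). Fbln2 and Emilin1 were further off, at 0.764 and 0.7569. The 14 points are 7 groups of 2 isolates, and the 2 lung CD44low libraries weigh most in each r. Fbln1, Loxl1, Loxl2 and the 4 genes named first reached 1 TPM in those 2 libraries alone. The filter thus admitted them through the group where Lox was high. Their high r was built in, and the order is a description and no support. No such list was made for Eln, which was not tested.

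Beside the 10 genes, 42 others with a place in elastic fiber biology were listed, of which 34 passed the filter. They comprise microfibril and assembly proteins, further crosslinking enzymes and their activators, elastin-degrading proteases, the elastin receptor complex and TGF-beta, the growth factor that microfibrils store in latent form. In lung CD44low against MFP 18 of the 34 were called higher and 2 lower, with a median difference of 2.42 against 0 over all genes, of which 11.2% were called higher and 18.8% in either direction. Of the 34, 5 (Ctsk, Efemp1, Emilin2, Mfap2 and Tll1) passed the filter only through the lung CD44low libraries. All of these but Emilin2 are among the 18 and had to differ, so the counts and the median describe the list and are no support. By class, 8 of 13 assembly and microfibril genes rose and 1 fell, 3 of 6 crosslinking genes rose, 3 of 6 elastin-degrading proteases rose and 1 fell, and 4 of 6 TGF-beta genes rose. None of the 3 receptor genes was called.

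Mmp2, the gelatinase that also cuts elastin, had the widest gap of the pathway genes in lung CD44low. It was at 340 and 369 TPM there, listed at 0 in both MFP libraries, and at most 1.29 in the other 10. Efemp2, or fibulin-4, which brings lysyl oxidase to tropoelastin, rose from 1.97 and 1.90 TPM in MFP to 450 and 446 in lung CD44low (log2 difference 7.26 ± 0.20, limma adjusted p = 5.4e-09). Pcolce, the enhancer of procollagen C-proteinase, rose from 3.92 and 4.11 to 505 and 506 TPM (6.66 ± 0.26, limma adjusted p = 2.9e-08). The microfibril protein gene Mfap5 was listed at 0 in MFP and at 96.3 and 79.6 TPM in lung CD44low, and Efemp1, or fibulin-3, went from 0 and 0.05 to 101 and 74.3 TPM. Loxl3, a further lysyl oxidase, rose by 5.50 ± 0.33, and Tgfbr3 and Tgfb3, a co-receptor and a ligand of the TGF-beta family, by 5.49 ± 0.59 and 5.20 ± 0.27. Mmp12, the macrophage elastase, fell, from 119 and 7.31 TPM in MFP to a listing of 0 in both lung groups, and passed the filter only through MFP, so that it had to be lower elsewhere.

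**Figure D4:**
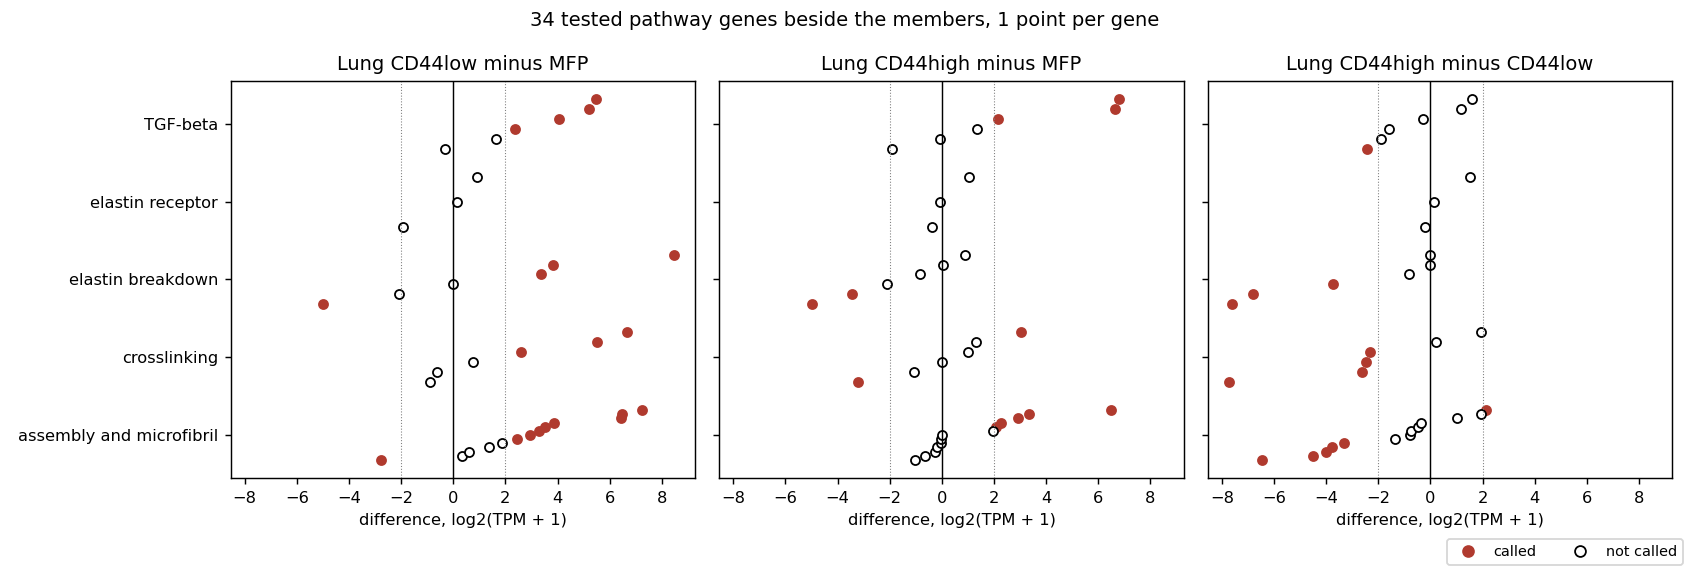
Differences on the log2(TPM + 1) scale of the 34 tested pathway genes in 3 comparisons, 1 point per gene in 5 classes, filled where called. In lung CD44low minus MFP 18 points are called to the right and 2 to the left, and in lung CD44high minus CD44low 13 are called to the left and 1 to the right.

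In lung CD44high against MFP 9 of the 34 were called higher and 3 lower, beside 5.42% of all genes called higher and 13.5% in either direction, with a median of 0 against -0.04 over all genes. Tgfb3 (6.80 ± 0.27), Tgfbr3 (6.65 ± 0.59), Efemp2 (6.49 ± 0.20), Ltbp1 (3.36 ± 0.81), a latent TGF-beta binding protein, and Loxl3 (3.04 ± 0.33) rose. Mmp12, the membrane protease Mmp14 and Loxl4 fell, and Mmp14 was listed at 0 in both lung CD44high libraries. Between the lung groups 13 of the 34 were lower in CD44high and 1, the ADAMTS-like gene Thsd4, was higher, with a median of -0.79 against -0.01 over all genes, of which 8.80% were called lower and 11.3% in either direction. Ctsk, Efemp1, Mfap2 and Tll1, which entered through lung CD44low alone, are 4 of the 13 and had to be lower. The Thsd4 call was lost without lung CD44low replicate 1 or lung CD44high replicate 1, while 3 genes were called higher without lung CD44high replicate 2, and 2 higher and 10 lower without lung CD44low replicate 2. Pcolce stood at 1 and 1.84 TPM in CD44high (log2 difference -7.73 ± 0.26, limma adjusted p = 1.5e-08) and Mmp2 at 0.47 and 1.27 (-7.60 ± 0.27, limma adjusted p = 2.4e-08). Mfap5 differed by -4.52 ± 0.38, Ltbp2, a further latent TGF-beta binding protein, by -3.99 ± 1.01 and Ctsk, the elastin-cutting cathepsin K, by -3.75 ± 0.20. Mmp14, Adamtsl5, Mfap2 and Efemp1 were listed at 0 in lung CD44high.

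The LN and BM lines carried crosslinking and fibulin genes that the 10 members do not cover. Efemp2 was at 85.4 to 122 TPM in their 8 libraries, which put it 5.13 to 5.25 above MFP on the log2(TPM + 1) scale with limma adjusted p of at most 3.5e-07. Loxl3 was at 13.3 to 35.4 TPM there, against 0.35 and 0.21 in MFP, with differences of 4.03 to 4.79. Tgfb3 was higher by 3.90 to 4.87 and Tgfb2 by 2.17 to 2.66. Pcolce was called higher in LN CD44high and both BM groups, by 3.02 to 3.32, and Tgfbr3 in both BM groups, by 2.79 and 3.08. Tgfbr1, a receptor kinase for TGF-beta, was called lower in those same 3 groups, with log2 differences of -2.31 to -2.78. The protease gene Ctsl fell in BM CD44low (-2.66 ± 0.29) and BM CD44high (-2.50 ± 0.29), and Bmp1, a procollagen proteinase that also activates lysyl oxidase, fell in LN CD44high (-2.18 ± 0.47) and BM CD44high (-2.07 ± 0.47). Mmp12 was lower in all 4 groups, by log2 differences of -3.92 to -4.83, although the MFP libraries themselves spanned 7.31 to 119 TPM. Its call in LN CD44low was lost without MFP replicate 1, without LN CD44low replicate 2 and without the 4 lung libraries. In counts, 4 rose and 1 fell in LN CD44low, 5 and 3 in LN CD44high, 7 and 3 in BM CD44low and 6 and 6 in BM CD44high. Over all genes 4.79%, 6.13%, 7.16% and 7.67% were called in these comparisons in either direction. A pseudocount of 0.1 TPM gave 7, 9, 11 and 9 of the 34 higher, with 2 lower in LN CD44low. Without MFP replicate 1 there was 1 lower in LN CD44high, and without LN CD44low replicate 1 there were 2 lower in LN CD44low. Median-ratio scaling left 1 lower in LN CD44high and 3 lower in BM CD44high. No pathway gene was called between CD44high and CD44low within LN or BM by limma, with 5 and 2 at an unadjusted p under 0.05, which 1545 and 1136 of all 15348 genes had. In LN 1 was called higher with median-ratio scaling or without LN CD44low replicate 2, and in BM 3 were called lower without BM CD44low replicate 1.

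In both lung groups together against LN and BM, 7 pathway genes were called higher and 1, Loxl4, lower, beside 7.13% of all genes called higher and 12.7% in either direction. Of the 7, Efemp1 and Mfap5 passed the filter only through lung libraries and had to be higher. A pseudocount of 0.1 TPM gave 12 higher and 4 lower and median-ratio scaling 5 and 2, there were 2 lower without BM CD44low replicate 1, and the Loxl4 call was lost without lung CD44low replicate 1. Ltbp1 led with 4.53 ± 0.49, followed by Mfap5, Tgfbr3 and Mmp2 (3.996, 3.85 and 3.84), and by Efemp1, Bmp1 and Ctsa, a subunit of the elastin receptor complex (3.22, 2.24 and 2.02). The CD44 contrast in lung differed from that in LN and BM for 15 of the 34, 12 negative and 3 positive, beside 9.59% of all genes called in either direction, the widest being Pcolce, with -8.79 ± 0.31. Mmp2 (-7.93), Mfap5 (-4.86), Ltbp2 (-4.14) and Ctsk (-3.76) were also negative, as were Efemp1, Mmp14 and Mfap2, which were listed at 0 in lung CD44high. The 12 include the 4 genes that entered through lung CD44low alone and had to differ. Tgfb3, Bmp1 and Thsd4 were the 3 positive genes, at 2.14, 2.42 and 2.78, and 1 gene was positive without lung CD44low replicate 1 or lung CD44high replicate 1.

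The single-cell libraries gave the same genes as counts, with no replicate. After keeping cells with over 250 genes and under 10% mitochondrial counts, 348 of 2808 barcodes remained in lungL, 1236 of 3623 in lungH and 2562 of 3297 in lymphH. These cells held 2220759, 2210623 and 5287425 counts, with medians of 4011, 557 and 585 counts per cell. Levels are given as counts per 10000 over all kept cells, with exact 95% Poisson intervals that cover counting error only. As these are counts of transcript ends not scaled for length, the order of genes within a library is not comparable with TPM. Barcodes are numbered within each library, so those shared between libraries could not be counted, and no doublets were removed.

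In lungL, Fbln2 was highest at 8.18 per 10000 (interval 7.81 to 8.56), then Lox at 3.70 (3.45 to 3.96), Fbln5 at 2.37 (2.17 to 2.58), Loxl1 at 1.65 (1.48 to 1.83) and Emilin1 at 1.20 (1.06 to 1.35). Fbn1 was at 0.60 (0.50 to 0.71) and Fbln1 at 0.10 (0.06 to 0.15). Eln and Fbn2 had no count in any of the 3 libraries, where 3 counts would be 0.0135, 0.0136 and 0.00567 per 10000 in lungL, lungH and lymphH and the upper ends of the intervals were 0.0166, 0.0167 and 0.00698.

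In lungH, Fbln2 was at 2.27 per 10000 (2.07 to 2.47) and Fbn1 at 0.30 (0.23 to 0.38), both intervals below those of lungL. Lox gave 10 counts, or 0.05 per 10000 (0.02 to 0.08), in 4 cells. Fbln5, Loxl1 and Emilin1 had no count and Fbln1 had 1. Among lymphH cells, Fbn1, Fbln1, Fbln2, Lox and Loxl1 had no count, and Fbln5 and Emilin1 had 1 count each. The pathway genes did not all keep their bulk order of the lung lines. Tgfb3, higher in bulk lung CD44high, was at 1.80 per 10000 (1.62 to 1.98) in lungL and 0.59 (0.50 to 0.70) in lungH. Thsd4, also higher there in bulk, gave 14 and 13 counts, and its intervals overlapped. Ltbp2 was at 5.96 and 4.94, a narrow gap beside its bulk difference. Bmp1 (1.21 and 2.17), Mmp2 (2.63 and 0.009) and Pcolce (1.44 and 0.05) kept their bulk order. Others are not given.

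Loxl2 was not highest in lungL as it was in bulk lung CD44low, at 0.02 per 10000 (0.007 to 0.053) in lungL, 0.09 (0.05 to 0.13) in lungH and 0.12 (0.09 to 0.16) in lymphH. The lymphH value was 0.262 as a mean of per-cell levels and 0.0717 in cells with over 500 genes, the latter under the lungH level, so no order of lungH and lymphH is read from it. Barcodes with 250 genes or fewer, which can hold free RNA, gave 0.07 (0.02 to 0.16), 0.10 (0.05 to 0.19) and 0.51 (0.21 to 1.06) per 10000 in these libraries, from 5, 9 and 7 counts. In lungL and lungH these intervals overlapped those of the kept cells, and in lymphH the low barcodes were higher, so that in no library did the kept cells stand above them in Loxl2. In lungL the low barcodes gave 2.63 per 10000 for Lox, 2.01 for Fbln2, 0.996 each for Fbln5 and Loxl1 and 0.32 for Emilin1. These were under the levels of the kept cells, although for Lox by less than for the others. Fbn1 was at 0.04 (0.01 to 0.12), also under the kept cells, while Fbln1, at 0.03 (0.003 to 0.096), had an interval that overlapped theirs.

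**Figure D5:**
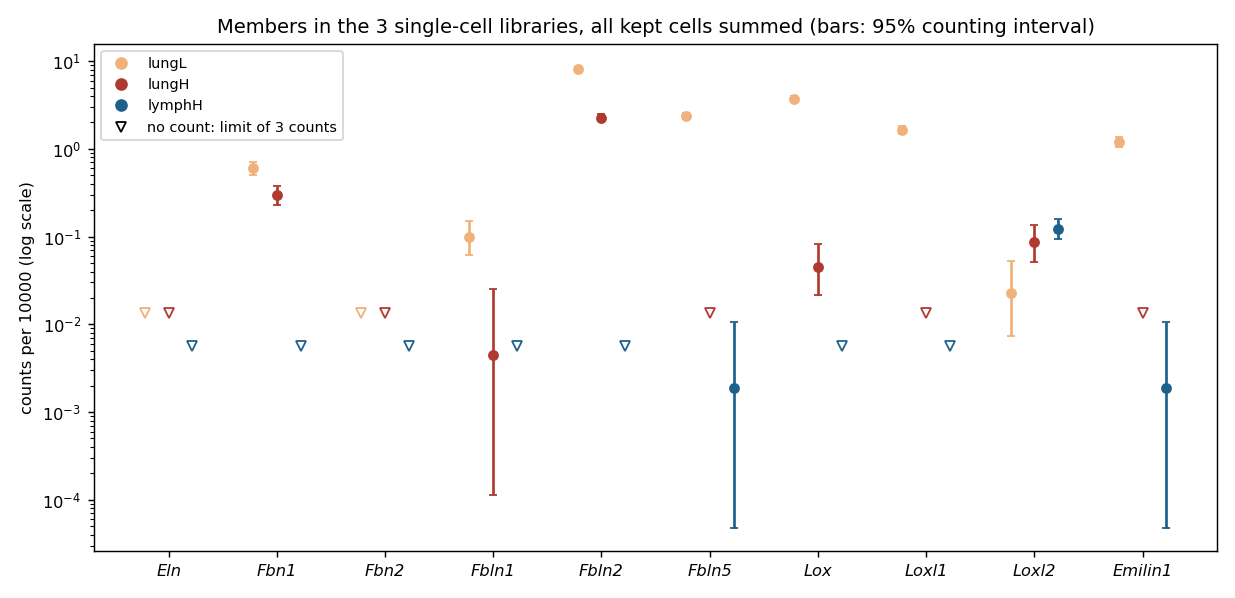
Counts per 10000 (log scale) of the 10 genes summed over kept cells of lungL, lungH and lymphH, with exact 95% Poisson intervals, and an open triangle at the limit of 3 counts where a gene had no count. Fbln2, Lox, Fbln5, Loxl1 and Emilin1 stand above 1 in lungL, and Fbln2 alone does in lungH.

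Of the 348 lungL cells 52.0% held an Fbln2 count, 44.0% a Lox count, 35.6% a Loxl1 count, 33.3% an Fbln5 count and 25.6% an Emilin1 count. These are shares of cells with a count, to be read beside the levels in the low barcodes, and not shares of cells that express the gene. Because lungL cells were deeper, each cell was also thinned to 500 counts, which left out 34 lungL, 288 lungH and 659 lymphH cells. An Fbln2 count was then found in 24.5% of lungL cells (exact binomial interval 19.9 to 29.7%), 5.38% of lungH cells (4.03 to 7.01%) and no lymphH cell of 1903 (upper end 0.194%). For Lox the thinned shares were 9.24% (6.27 to 12.99%) in lungL and 0.21% (0.03 to 0.76%) in lungH. In the low barcodes of lungH, Lox was at 0.044 per 10000 (0.012 to 0.114), no lower than in the kept cells beyond counting error, Fbln2 at 0.75 (0.59 to 0.96) and Fbn1 at 0.12 (0.06 to 0.22). After thinning, 10.5% of lungL cells held counts of 2 or more of the 10 genes, against 0.32% of lungH cells and no lymphH cell.

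The marker lists were also read in these libraries. The 6 smooth muscle or myofibroblast markers summed to 61.8 counts per 10000 in lungL, 0.08 in lungH and 0.13 in lymphH. Most of it was Acta2, the smooth muscle actin gene, at 45.6 per 10000 in the kept lungL cells and at 63.6 (61.8 to 65.4) in the lungL barcodes with 250 genes or fewer, so the kept cells did not stand above the low barcodes in it. The 10 fibroblast markers summed to 21.4 per 10000 in lungL, where 3 of the 10 had no count, to 0.27 in lungH, where 7 had none, and to 0.12 in lymphH, where 6 had none. The lungL sum was mostly collagen, with Col1a2 at 14.4 and Col1a1 at 4.35 per 10000. Dcn, or decorin, gave 22 counts in lungL (0.10 per 10000) although it stood at 4091 and 4315 TPM in the bulk lung CD44low libraries, Thy1 gave 8 counts, and Lum, Fap and Dpt had none. The 10 epithelial markers summed to 1.59 per 10000 in lungL, 4.37 in lungH and 10.5 in lymphH, with 6, 6 and 2 of the 10 at no count. Epcam had no count in lungL, 3 in lungH and 936 in lymphH. The keratin gene Krt18 was at 0.52, 2.59 and 1.17 per 10000. In the lungL barcodes with 250 genes or fewer Krt8 was at 0.58, Krt18 at 0.90, Krt7 at 0.98 and Cldn3 at 0.31 per 10000. The kept lungL cells, at 0.14, 0.52, 0.74 and 0.20, were not above these. In lungH the low barcodes gave 1.55 for Krt8 and 2.94 (2.60 to 3.31) for Krt18, with intervals that overlapped those of the kept cells. No order of the libraries is read from Krt18.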

How the data were processed

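Bulk RNA (14 libraries) was made into cDNA with a modified SMART-seq2 protocol. Per the methods, reads were mapped to mm10 by STAR and expression was estimated by RSEM against GENCODE v21. The authors deposited the TPM of each gene. The methods give a minimum read depth and no depth per library, so the counting error of low TPM could not be computed. For single cells (SureCell 3′ libraries), the authors deposited counts per gene and barcode made with kallisto. Versions are not given in the sources used here.

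Genes with at least 1 TPM in 2 libraries (15348 of 55450) were tested on log2(TPM + 1) with limma 3.58.1 in R 4.3.3: 7 group means, one shared spread with 7 residual degrees of freedom, an abundance trend and two-sided p-values, adjusted by Benjamini-Hochberg over all genes in each of 11 comparisons. A fold on this scale understates changes of low genes. The test was tried on simulated data. The edgeR exact test of the study needs counts and was not used. The members, pathway and marker lists were chosen with earlier results of these data known. All 10 members are named; of the pathway genes, up to 8 called with the largest difference per comparison are, and other named ones were chosen after their values were seen. Alternatives were a pseudocount of 0.1 TPM, no filter, a filter of 5 TPM, median-ratio scaling, a replicate block, each library left out and, for single cells, other cell filters. Fits without the lung libraries were added after seeing the data. Libraries were tested as unpaired. The methods do not say whether same-numbered CD44high and CD44low lines of a tissue came from the same mouse. Gene positions are from GENCODE vM21 and promoter windows from RefSeq (5 of 10 genes). For Lox, the rule named the 5 genes with the highest r, and 1 of them is not reported here.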

Additional observations from a re-analysis of the deposited data

Results flagged for a closer look

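The CD44high minus CD44low difference in lung differed from its mean in LN and BM for 7 of the 8 tested genes, by the limma test of that difference itself, where 6.57% of all genes were called lower and 9.59% in either direction. On the log2(TPM + 1) scale the difference of differences was -9.75 ± 0.45 for Fbln5, -8.52 ± 0.38 for Lox, -6.68 ± 0.36 for Emilin1 and -6.38 ± 0.20 for Fbln1. It was -5.89 ± 0.27 for Loxl1, -3.42 ± 0.31 for Loxl2 and -2.59 ± 0.47 for Fbn1, and limma adjusted p ran from 3.4e-08 for Fbln1 to 0.0031 for Fbn1. The lung CD44high libraries were listed at 0 for Fbln5 and Fbln1, so the size of those values depends on the pseudocount. Fbln1, Loxl1 and Loxl2 passed the filter only through lung CD44low and had to differ, so the count of 7 is a description and no support. For Emilin1 both lung CD44high libraries were below both lung CD44low libraries, while both BM CD44high libraries were above both BM CD44low libraries, a BM difference of 1.77 ± 0.29 that was not called (limma adjusted p = 0.086).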

How the results depend on the processing

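Of 215 recomputed counts of members called, 208 stayed within 1.5 times the reported count. The exceptions were lung CD44high against MFP, with 1 to 2 called when single libraries were left out (1 without MFP replicate 2 or lung CD44high replicate 1). In these fits the lone library of a group was assumed to vary like the other groups. A pseudocount of 0.1 TPM gave 3 called in LN CD44low, 4 in LN CD44high, 4 in BM CD44low and 4 in BM CD44high, as Lox fell and Emilin1 or Fbln5 rose past the limits. Median-ratio scaling called 1 in BM CD44high against CD44low. Among 1720 recomputed differences of single genes 1705 kept their side of the limits, 13 newly passed, 2 were lost and none reversed; Fbln5 in BM CD44high reached 2.03 without BM CD44high replicate 2. Over all genes, the pseudocount of 0.1 raised calls against MFP from 2065 to 3286 in lung CD44high, 735 to 1430 in LN CD44low, 941 to 1876 in LN CD44high, 1099 to 2055 in BM CD44low and 1177 to 2195 in BM CD44high. It raised them from 1732 to 2666 between the lung groups, 1946 to 3650 in lung against LN and BM, and 1472 to 2218 in the CD44 contrast of lung against LN and BM. Without BM CD44low replicate 1, calls between the BM groups went from 16 to 975 and in BM CD44low against MFP to 1781. Leaving out other single libraries gave up to 27 between the BM groups and 12 to 103 between the LN groups, from 32, and 12 without the lung libraries. With median-ratio scaling the median over all genes moved by 0.32 in LN CD44high and 0.37 in BM CD44high against MFP, and the share of calls that were higher from 40.0% to 58.6% and from 47.4% to 64.9%. Between the LN groups that share went from 56.2% to 69.2%. Deviations of same-numbered libraries correlated weakly, with r from -0.19 to 0.17 over 21 pairs of groups and 3 pairs over 0.1. The check does not single out the CD44high and CD44low lines of a tissue, so it cannot show these to be unpaired. A replicate block gave 8 members called in lung CD44low against MFP, 7 between the lung groups and the reported count elsewhere. Of 120 recomputed single-cell levels 104 stayed within the reported interval, and those that moved used all barcodes, cells over 500 genes or per-cell means. With per-cell means Fbln2 in lungH was 1.47 against 2.27 per 10000, Fbn1 0.157 against 0.299 in lungH and 0.389 against 0.599 in lungL, and Loxl2 in lymphH 0.262 against 0.123, which cells over 500 genes put at 0.0717. For the bulk libraries the methods state only a minimum depth, so no counting error could be given for values under 1 TPM.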
